A study of Bos taurus with 7 samples.

Results

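The nuclear genes that encode the subunits of the oxidative phosphorylation machinery were compared between secondary follicles (SF) and primary follicles (PF) of the bovine ovary. The genes were chosen by symbol, as those starting with NDUFA, NDUFB, NDUFC, NDUFS or NDUFV (complex I, assembly factors left out), SDHA to SDHD (complex II), UQCR (complex III), COX4 to COX8 (complex IV) and ATP5 (complex V). The rule gave 88 symbols, of which 84 had a transcript in the files, among 23704 genes in all. *COX5A*, *UQCRC2*, *COX8C* and the pseudogene *COX7ALP1* were not matched to a transcript and were not analysed here. The 84 genes were 39 of complex I, 4 of complex II, 7 of complex III, 16 of complex IV and 18 of complex V.

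Both groups were untreated follicles, mechanically isolated from bovine ovarian cortex and collected fresh after a short recovery in medium with insulin and FSH. SF had an oocyte with more than 1 layer of granulosa cells, and PF had an oocyte inside 1 complete layer of cuboidal granulosa cells. RNA was sequenced in 3 SF and 4 PF libraries, each from a pool of whole follicles, so that oocyte and granulosa cell RNA came mixed in 1 sample. The pools came from many animals, and the labels do not say which went into which library, so a p-value here speaks only for the scatter of these libraries, and that scatter may be technical. Each library held 18788105 to 23764615 estimated counts. PF replicate 4 stood apart from the other PF libraries and was left out of the comparison. Its values are given beside the rest.

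Oxidative phosphorylation passes electrons along the inner mitochondrial membrane and uses the proton gradient this builds to make ATP. Complex I takes electrons from NADH, complex II takes them from succinate, complex III passes them from ubiquinol to cytochrome c, complex IV gives them to oxygen, and complex V is the ATP synthase. Oocytes carry a large store of mitochondria that the embryo inherits, while granulosa cells are known to supply the oocyte with pyruvate. The subunits that mitochondrial DNA encodes fall outside the symbols above and were not analysed here.

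The labelled cell types were checked first. The oocyte markers, 15 genes such as *GDF9* and *ZP3*, had a summed level of 219 to 1658 TPM (Salmon's length-corrected abundance, with 1 fixed total per library) in SF replicates 1 to 3, against 2305 to 4577 TPM in PF replicates 1 to 3 and 384 TPM in PF replicate 4. The granulosa markers, 14 genes such as *FOXL2* and *AMH*, had 6881 to 7559 TPM in SF, against 2110 to 3157 TPM in PF replicates 1 to 3 and 2424 TPM in PF replicate 4. The stromal fibroblast markers, 8 genes such as *COL1A1* and *DCN*, had 239.7 to 549 TPM in SF, against 423 to 616 TPM in PF replicates 1 to 3 and 5847 TPM in PF replicate 4. By DESeq2, 11 of 15 oocyte markers were lower and 9 of 14 granulosa markers were higher in SF. Over all genes tested, 11.0% were lower and 8.14% were higher. Of the 8 stromal markers 1 was higher and 0 were lower, with a median log2 fold change of 0.65. The 5 erythroid genes summed to 13.5 to 24.9 TPM in SF and 2.10 to 18.0 TPM in PF replicates 1 to 3. PF replicate 4 had 14.9 TPM of them, and *ALAS2* and *HBB* were at 0 in every library. The smooth muscle and pericyte markers, 5 genes, summed to 169 to 236 TPM in SF, against 63.5 to 125 TPM in PF replicates 1 to 3 and 991 TPM in PF replicate 4, with 1 of 4 tested genes called higher. The immune markers, 6 genes, summed to 3.92 to 26.0 TPM in SF, against 41.1 to 89.2 TPM in PF replicates 1 to 3 and 8.24 TPM in PF replicate 4, with 1 of 3 tested genes called lower. The theca markers, 4 genes, summed to 119 to 232 TPM in SF and 85.3 to 148 TPM in PF replicates 1 to 3. PF replicate 4 had 524 TPM of them. The endothelial markers, 6 genes, summed to 20.9 to 97.8 TPM in SF and 32.7 to 44.6 TPM in PF replicates 1 to 3. PF replicate 4 had 38.6 TPM of these, and no tested gene of either list was called. The mixture of cell type RNA thus moved with the stage, and its part in the results below was not tested. In whole follicles, fewer cells of a type and less RNA per cell cannot be told apart.

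Taken over all members, RNA for the respiratory chain and ATP synthase had a lower mean in SF, and the SF and PF ranges overlapped. The 84 genes together held 3.44%, 2.80% and 2.17% of all TPM in SF replicates 1 to 3, against 4.02%, 4.32% and 2.98% in PF replicates 1 to 3 and 3.64% in PF replicate 4. Their summed level averaged 28030 ± 6342 TPM in SF and 37747 ± 7009 TPM in PF (SD, n = 3 each). This total was lowest in SF replicate 3, and SF replicate 1 lay above PF replicate 3.

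The ratio of the sums differed from complex to complex. Complex I had summed levels of 13603, 10199.9 and 7199 TPM in SF replicates 1 to 3, against 18325, 20302 and 12080.4 TPM in PF replicates 1 to 3 and 12489 TPM in PF replicate 4. The mean was 10334 ± 3204 TPM in SF and 16902 ± 4291 TPM in PF, a ratio of 0.61 (log2 −0.71). Only SF replicate 1 reached into the PF range. Complex IV averaged 6559 ± 1230.4 TPM in SF and 8673 ± 1057 TPM in PF (log2 −0.40), again with 1 SF library inside the PF range.

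The 3 other complexes were closer between the stages. Complex V, the ATP synthase, averaged 8568 ± 1363 TPM in SF and 9537 ± 1214 TPM in PF (log2 −0.15). Its log2 ratio was −0.0036 in counts divided by the library total, and it turned to 0.20 in median-of-ratios normalized counts. Neither kind of count corrects for length, and they differ in how libraries are scaled to each other. In normalized counts the log2 ratio was −0.52 for complex I, −0.26 for complex IV and −0.05 for complex III. Complex III averaged 1833 ± 404 TPM in SF and 1963 ± 303 TPM in PF (log2 −0.10). Complex II averaged 737 ± 170.1 TPM in SF and 671 ± 157 TPM in PF, which made it the only complex with a higher mean TPM in SF (log2 0.13, and 0.24 in normalized counts), and with PF replicate 4 kept it too was lower in TPM (log2 −0.05). Library numbers lay below 40 for SF replicate 1 and PF replicates 1 and 2, and above 40 for the rest. PF replicate 4 was left out of this split too. The only SF library of the lower numbers was thus SF replicate 1, and the only PF library of the higher numbers was PF replicate 3. Complex II summed to 490 TPM in PF replicate 3 and 1039 TPM in PF replicate 4, and complex III to 1612 and 3142 TPM. Within the lower numbers the log2 ratios of the sums were −0.51 for complex I, 0.24 for II, 0.09 for III, −0.27 for IV and −0.04 for V, and within the higher numbers −0.47, 0.42, −0.0042, −0.32 and −0.05. No test was run on the sums, since they are scores over chosen genes.

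**Figure D1:**
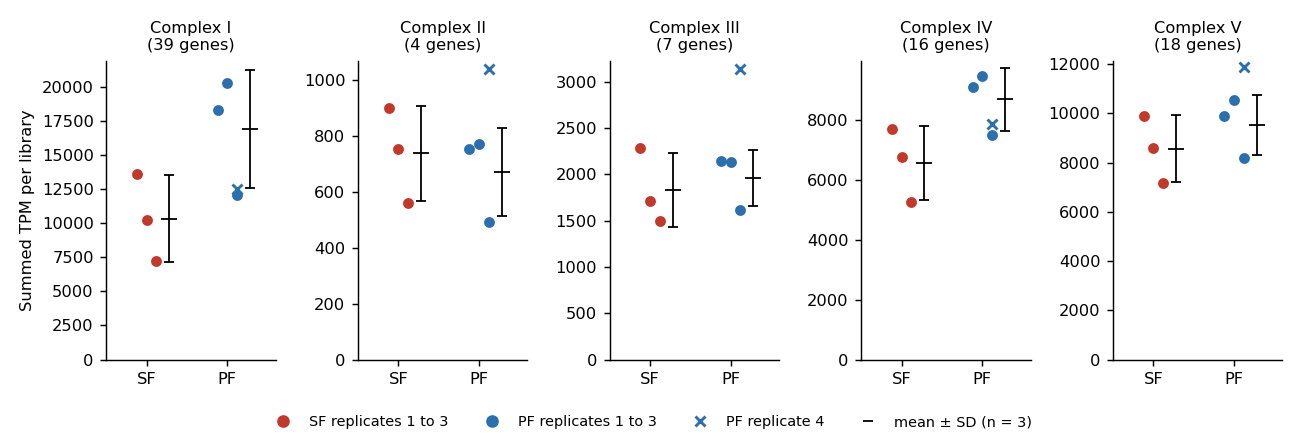
Summed TPM of the measured subunit genes of each complex (y axis, TPM) in SF and PF libraries; circles are the libraries compared, crosses are PF replicate 4, and bars give the mean ± SD of 3 libraries. The complex I sums of SF sit between 7199 and 13603 TPM against 12080.4 to 20302 TPM in PF replicates 1 to 3, and the groups overlap in every complex.

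A ratio between complexes inside a library does not depend on how libraries are scaled to each other. The complex V sum divided by the complex I sum was 0.73, 0.84 and 1.00 in SF replicates 1 to 3, against 0.54, 0.52 and 0.68 in PF replicates 1 to 3. Every SF library lay above these PF libraries, and PF replicate 4 lay with SF, at 0.95. The complex II sum divided by the complex I sum was 0.066, 0.074 and 0.078 in SF, against 0.041, 0.038 and 0.041 in PF replicates 1 to 3 and 0.083 in PF replicate 4. For complex III over complex I the values were 0.168, 0.168 and 0.209 in SF, against 0.117, 0.105 and 0.133 in PF replicates 1 to 3 and 0.252 in PF replicate 4. For complex IV over complex I the groups overlapped, at 0.564, 0.663 and 0.728 in SF against 0.496, 0.466 and 0.618 in PF replicates 1 to 3 and 0.627 in PF replicate 4. With *NDUFAB1*, the most abundant gene of complex I, taken out, the ratio of V to I was 0.770, 0.889 and 1.04 in SF, against 0.618, 0.578 and 0.766 in PF replicates 1 to 3 and 0.991 in PF replicate 4. SF replicate 1 then lay barely above PF replicate 3.

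SF replicate 3, with 219 TPM of oocyte markers, had the highest ratio of V to I, followed by PF replicate 4 with 384 TPM of oocyte markers, SF replicate 2 with 1271 TPM and SF replicate 1 with 1658 TPM. PF replicates 1 and 2, with 4577 and 4207 TPM of oocyte markers, had the lowest ratios, and between them the order was the other way round, at 0.54 in PF replicate 1 and 0.52 in PF replicate 2. This order over 7 libraries is a description, and all values of a point come from the same library.

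**Figure D2:**
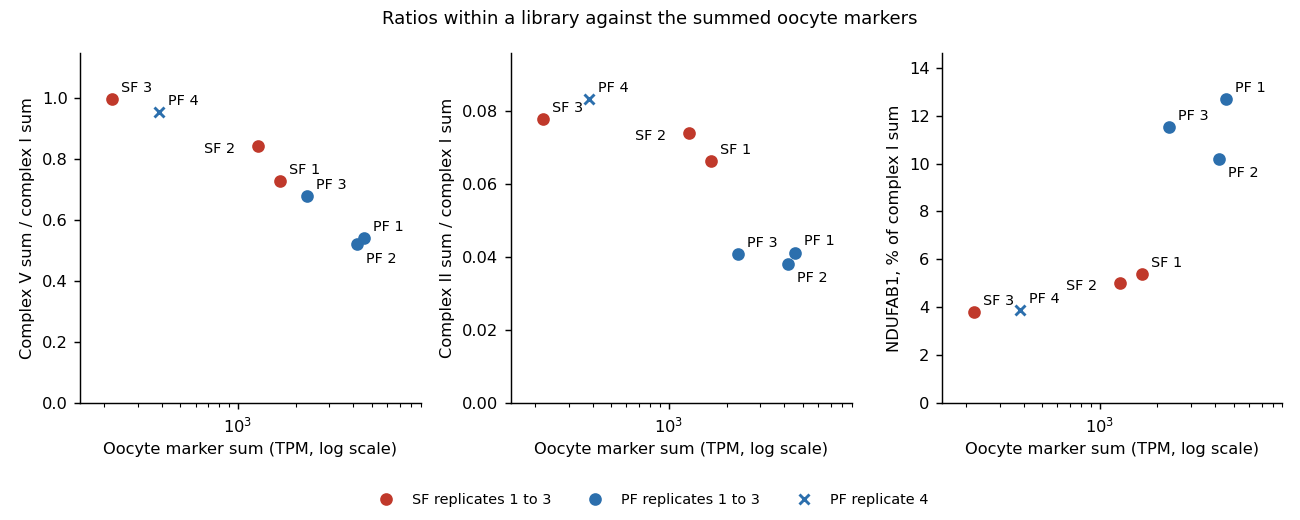
Ratio of summed TPM within each library (y axes: complex V over complex I, complex II over complex I, and NDUFAB1 as a percentage of the complex I sum) against the summed TPM of 15 oocyte markers (x axis, log scale); red points are SF, blue points are PF replicates 1 to 3 and the cross is PF replicate 4. PF replicate 4, with 384 TPM of oocyte markers, sits with SF in all 3 panels, at 0.95 for V over I and 3.87% for NDUFAB1.

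Gene by gene, 10 of the 81 members tested differed between SF and PF (DESeq2, Benjamini-Hochberg adjusted p below 0.05 over all genes tested), 2 higher and 8 lower in SF. Over all 15056 genes tested, 8.14% were higher and 11.0% were lower, so the members' shares of 2.47% higher and 9.88% lower were below and near those of all genes. The members' count is therefore no result about oxidative phosphorylation as a group. The median log2 fold change was −0.18 over the members and 0.02 over all genes, with 52 members fitted below 0 and 29 above. In normalized counts, 19 members had every SF library below every PF library and 6 had every SF library above, which is 23.5% and 7.41% of the members, against 18.9% and 16.9% of all genes.

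The calls fell on complexes I, IV and V, at 12.8%, 23.1% and 11.1% of their tested genes, beside 19.1% of all genes. In complex I, 4 of 39 genes were lower and 1 was higher, with a median log2 fold change of −0.37. In complex IV, 3 of 13 tested genes were lower and none was higher by DESeq2 (median −0.23; 4 had an unadjusted p below 0.05), while in complex V 1 of 18 was higher and 1 was lower (median 0.01). None of the 4 genes of complex II (median 0.39; 1 with an unadjusted p below 0.05) and none of the 7 of complex III (median 0.10; 2 with an unadjusted p below 0.05) was called. Over all 15056 genes tested, 4781 had an unadjusted p below 0.05 by DESeq2, so such p-values were common in this comparison. These counts depended on the method and on single libraries. By edgeR 0 of 81 members were called, 20 had an unadjusted p below 0.05 and their smallest adjusted p was 0.054, at 0 calls over all 14293 genes it tested. Of those 14293 genes, 3844 had an unadjusted p below 0.05. With PF replicate 4 kept, only *NDUFB6* and *NDUFV3* remained called, at 388 higher and 470 lower over all 14733 genes tested. Leaving out 1 library gave 0 higher and 3 lower members without PF replicate 1, 0 and 2 without PF replicate 2, 3 and 10 without PF replicate 3, 0 and 19 without SF replicate 1, 0 and 2 without SF replicate 2, and 2 and 5 without SF replicate 3. Over all genes these fits called 1001 higher and 927 lower without PF replicate 1, and 936 and 951 without PF replicate 2. Without PF replicate 3 the calls were 2018 and 1929. Without SF replicates 1, 2 and 3 they were 1019 and 1785, 697 and 1312, and 894 and 1444. These fits tested 14594 to 15463 genes.

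**Figure D3:**
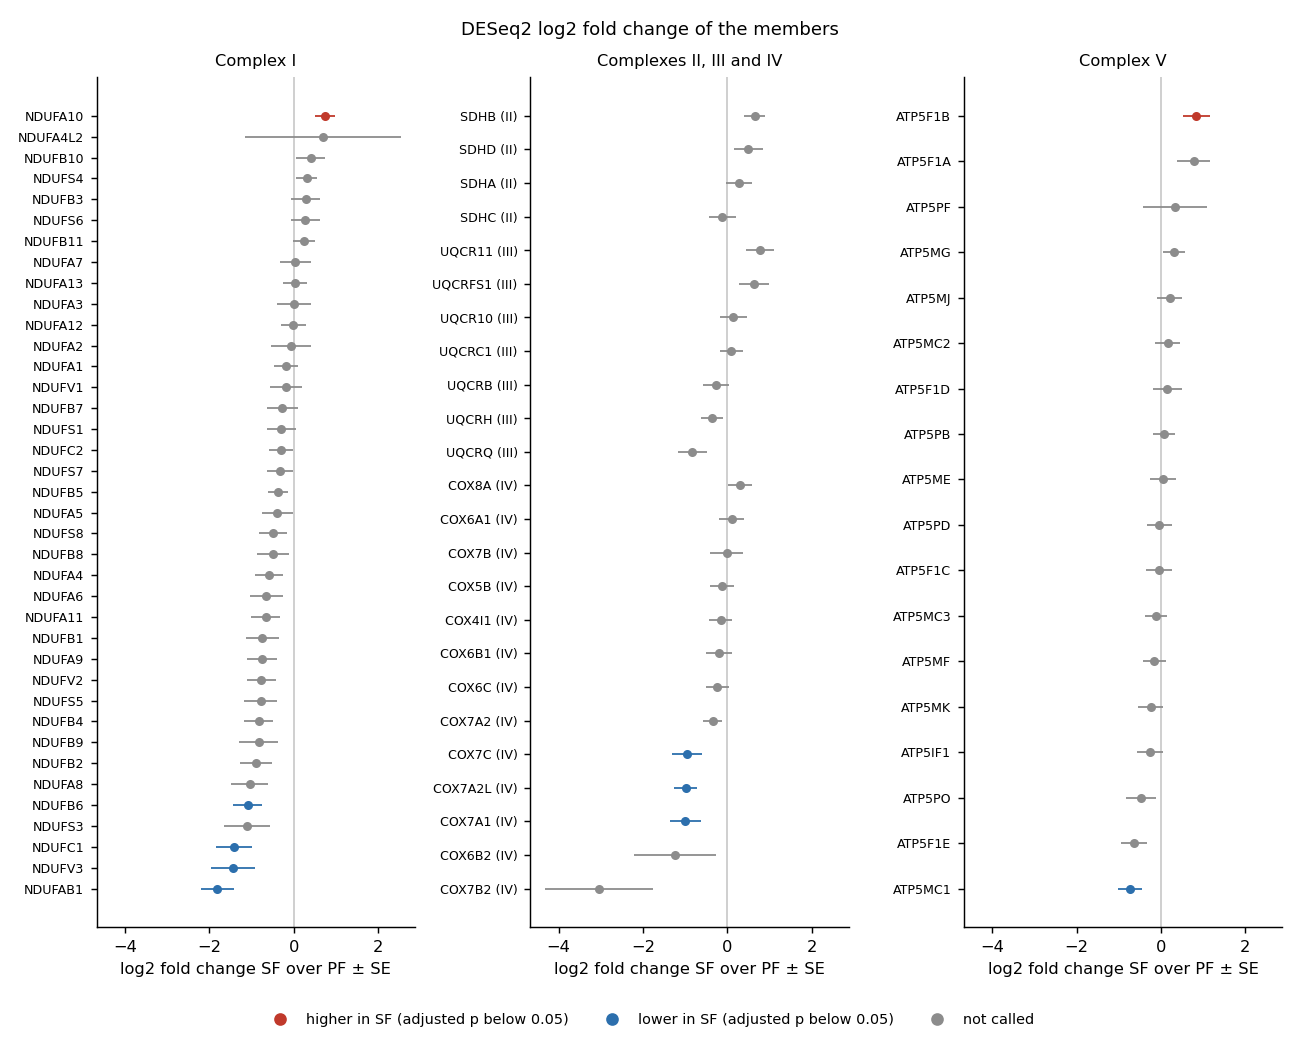
DESeq2 log2 fold change of SF over PF with its standard error (x axis) for 80 of the 81 members tested (y axis), in panels by complex and ordered by value within a complex; red is higher and blue is lower in SF at an adjusted p below 0.05, and grey is not called. Of the 39 complex I genes tested 28 are fitted below 0, against 9 of 18 for complex V.

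Complex I is the largest of the chain. Its core subunits, of which 7 are nuclear, carry the flavin, the iron-sulfur clusters and the ubiquinone site, and the other subunits surround and stabilise this core. None of the 7 nuclear core genes was called (DESeq2), and their log2 fold changes had a median of −0.32. The remaining 32 genes held all 5 calls of the complex and had a median of −0.38. Core and other genes were thus shifted by a similar median.

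*NDUFAB1* encodes the mitochondrial acyl carrier protein, which is both a complex I subunit and the carrier for mitochondrial fatty acid and lipoic acid synthesis. It had 732, 509 and 273 TPM in SF replicates 1 to 3, against 2329, 2069 and 1391 TPM in PF replicates 1 to 3 and 483 TPM in PF replicate 4. Every SF library was below PF replicates 1 to 3, and PF replicate 4 lay inside the SF range. Its log2 fold change of −1.81 ± 0.40 (SE) was the largest fall among the members called (DESeq2 adjusted p = 2.4e-04). The gene made up 5.38%, 4.99% and 3.8% of the complex I sum in SF, against 12.7%, 10.2% and 11.5% in PF replicates 1 to 3 and 3.87% in PF replicate 4. It stayed called with each of the 6 libraries left out in turn, and was not called by edgeR (adjusted p = 0.054) or with PF replicate 4 kept (adjusted p = 0.078 by DESeq2).

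Of the other complex I genes that fell, *NDUFC1* encodes a small membrane subunit. Its level was 731, 549.7 and 382 TPM in SF, against 1351, 2568 and 987 TPM in PF replicates 1 to 3 and 674 TPM in PF replicate 4, so that the groups compared did not overlap (log2 fold change −1.40 ± 0.43, DESeq2 adjusted p = 0.010). PF replicate 2 was far above the other PF libraries. Without it the adjusted p was 0.066, and without SF replicate 2 it was 0.072.

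*NDUFB6*, another membrane-arm subunit, had 209 TPM, 182 TPM and 102 TPM in SF, against 465, 383 and 296 TPM in PF replicates 1 to 3 and 267 TPM in PF replicate 4. Here PF replicate 4 stayed above every SF library (log2 fold change −1.09 ± 0.34, DESeq2 adjusted p = 0.013). The adjusted p was 0.080 without PF replicate 1, 0.056 without PF replicate 2 and 0.072 without SF replicate 2.

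*NDUFV3*, a small subunit of the NADH-binding arm, was among the least abundant members. It had 20.0, 18.3 and 7.63 TPM in SF, against 39.5, 62.7 and 31.9 TPM in PF replicates 1 to 3 and 38.1 TPM in PF replicate 4, again with all PF libraries above SF (log2 fold change −1.44 ± 0.53, DESeq2 adjusted p = 0.037). Only 1 of its 3 reference transcripts was matched. The adjusted p was 0.068 without PF replicate 1, 0.19 without PF replicate 2, 0.11 without SF replicate 2 and 0.10 without SF replicate 3. It was also 0.10 with the library number as a covariate, 0.055 with TMM factors and with total counts, and 0.058 with the 10-count filter.

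One complex I gene rose. *NDUFA10*, a subunit of the membrane arm with a nucleoside kinase fold, had 117, 142 and 93.2 TPM in SF, against 85.4, 76.9 and 64.4 TPM in PF replicates 1 to 3. PF replicate 4, at 176 TPM, was above all others. The log2 fold change was 0.74 ± 0.24 (DESeq2 adjusted p = 0.015), and 0.23 with PF replicate 4 kept (adjusted p = 0.85). The adjusted p was 0.079 without PF replicate 1, 0.098 without PF replicate 2, 0.0503 without SF replicate 1 and 0.12 without SF replicate 2. *NDUFA10* and *NDUFAB1* moved apart, with a ratio of 0.16, 0.28 and 0.34 in SF, against 0.037, 0.037 and 0.046 in PF replicates 1 to 3 and 0.36 in PF replicate 4.

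The catalytic genes of complex I that were examined did not pass the test. *NDUFS1*, which holds iron-sulfur clusters, averaged 47.8 ± 13.3 TPM in SF and 63.2 ± 24.6 TPM in PF (SD, n = 3 each; log2 fold change −0.30 ± 0.35). *NDUFV1*, which binds NADH and the flavin, averaged 106 ± 33.6 TPM in SF and 133 ± 49.0 TPM in PF (−0.18 ± 0.39). For both genes the groups overlapped. Over complex I the mean level ran between 4.54 TPM (*NDUFA4L2*) and 733 TPM (*NDUFA1*) in SF, and between 3.34 TPM (*NDUFA4L2*) and 1929.6 TPM (*NDUFAB1*) in PF, with 34 of 39 genes above 100 TPM at either stage.

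In normalized counts, 11 of the 39 complex I genes had every SF library below PF replicates 1 to 3 and 2 had every SF library above, which is 28.2% and 5.13%, against 18.9% and 16.9% of all genes. Besides the genes called, those below were *NDUFA8*, *NDUFB1*, *NDUFB2*, *NDUFB4*, *NDUFB5*, *NDUFS3* and *NDUFV2*, and the one above was *NDUFS4*. *NDUFA8*, a subunit with paired cysteine motifs, had 55.4, 42.1 and 26.1 TPM in SF, against 139, 83.8 and 58.3 TPM in PF replicates 1 to 3 and 35.6 TPM in PF replicate 4 (log2 fold change −1.04 ± 0.44, DESeq2 adjusted p = 0.075). Leaving out PF replicate 3 gave a call (adjusted p = 0.041), as did leaving out SF replicate 1 (0.028), and PF replicate 4 lay inside the SF range. *NDUFS3*, a core subunit, had 143, 112 and 33.9 TPM in SF, against 229, 304 and 139.6 TPM in PF replicates 1 to 3 and 163 TPM in PF replicate 4 (−1.11 ± 0.55, adjusted p = 0.14), with SF replicate 3 far below the rest; without SF replicate 1 it was called (adjusted p = 0.042). *NDUFS4*, an accessory subunit of the NADH-binding arm, had 349, 291 and 239 TPM in SF, against 287, 264 and 223 TPM in PF replicates 1 to 3 and 325 TPM in PF replicate 4 (0.31 ± 0.25, adjusted p = 0.42).

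*NDUFA4* and *NDUFA4L2* carry complex I names, although the NDUFA4 protein is now placed in complex IV. *NDUFA4* averaged 457 ± 129.8 TPM in SF and 756 ± 217 TPM in PF (log2 fold change −0.59 ± 0.33, DESeq2 adjusted p = 0.21). Counting it in complex IV left the log2 ratios of the sums at −0.71 for complex I and −0.43 for complex IV. *NDUFA4L2*, known from other mammals as a gene induced by low oxygen and common in pericytes, was near 0 in most libraries, with 0, 0.491 and 13.1 TPM in SF and 1.14, 6.85 and 2.05 TPM in PF replicates 1 to 3. PF replicate 4 had 118 TPM of it. The same library had the 991 TPM of smooth muscle and pericyte markers given above; the part of such cells in this value was not tested.

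Complex II, succinate dehydrogenase, is the only complex encoded wholly in the nucleus and also a step of the TCA cycle. *SDHB*, its iron-sulfur subunit, had 239, 202 and 168 TPM in SF, against 164, 149 and 110.0 TPM in PF replicates 1 to 3 and 384 TPM in PF replicate 4. All SF libraries were above PF replicates 1 to 3, and PF replicate 4 was above them all. The log2 fold change of 0.65 ± 0.25 missed the threshold (DESeq2 adjusted p = 0.051), and the gene was called without SF replicate 3 (adjusted p = 0.031), with the library number as a covariate (0.0096), with TMM factors (0.035) and with the length offset (0.047). *SDHA*, the flavoprotein, averaged 152 ± 31.7 TPM in SF and 137 ± 45.3 TPM in PF (0.28 ± 0.31), and *SDHC*, a membrane anchor and the most abundant of the complex, averaged 248 ± 64.8 TPM in SF and 291 ± 84.6 TPM in PF (−0.12 ± 0.32). *SDHD*, the second anchor, had every normalized count of SF above PF (0.50 ± 0.35, adjusted p = 0.33).

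In complex III, *UQCR11*, a small subunit and the most abundant of the complex over all libraries, had 649, 405 and 395 TPM in SF, against 330.2, 354 and 249.7 TPM in PF replicates 1 to 3 and 669 TPM in PF replicate 4. The SF libraries were all above PF replicates 1 to 3, but the log2 fold change of 0.78 ± 0.34 did not pass (DESeq2 adjusted p = 0.086). *UQCRFS1*, the Rieske iron-sulfur protein, averaged 151 ± 54.4 TPM in SF and 106 ± 29.6 TPM in PF (0.64 ± 0.36, adjusted p = 0.22), and stood at 499 TPM in PF replicate 4. *UQCRC1*, a core protein, averaged 156 ± 16.2 TPM in SF and 159 ± 41.0 TPM in PF (0.10 ± 0.27). *UQCRQ* went the other way, with 307, 219 and 166 TPM in SF, against 509, 530.3 and 314 TPM in PF replicates 1 to 3 and 255 TPM in PF replicate 4 (−0.83 ± 0.34, adjusted p = 0.065; called without PF replicate 3 at 0.037 and without SF replicate 1 at 0.0037). Within this one complex, genes for subunits of the same assembly thus had log2 fold changes in both directions, none of them past the threshold in the comparison as designed. With the library number as a covariate *UQCR11* and *UQCRQ* were called (DESeq2 adjusted p = 0.043 and 0.031).

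Complex IV, cytochrome c oxidase, has several subunits with more than 1 gene, and its calls fell on the COX7 genes. *COX7A1*, known as the heart and muscle isoform of subunit VIIa, had 552, 362 and 327 TPM in SF, against 864, 1259.7 and 627 TPM in PF replicates 1 to 3 and 259 TPM in PF replicate 4. SF was below PF replicates 1 to 3 throughout, and PF replicate 4 was lower still. The log2 fold change was −0.99 ± 0.37 (DESeq2 adjusted p = 0.040). The adjusted p was 0.073 without PF replicate 1, 0.18 without PF replicate 2, 0.19 without SF replicate 2, 0.12 without SF replicate 3 and 0.44 with PF replicate 4 kept. *COX7A2*, the isoform of most other tissues, had 410.3, 369.9 and 332 TPM in SF, against 582, 577 and 407 TPM in PF replicates 1 to 3 and 699 TPM in PF replicate 4 (−0.35 ± 0.23, adjusted p = 0.30).

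Within a library *COX7A1* divided by *COX7A2* was 1.34, 0.98 and 0.98 in SF, against 1.48, 2.18 and 1.54 in PF replicates 1 to 3. In PF replicate 4, the library rich in stromal markers, the ratio was 0.37. The muscle isoform was the more abundant of the pair in PF replicates 1 to 3 and SF replicate 1, and the less abundant in SF replicates 2 and 3 and PF replicate 4.

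*COX7A2L*, whose product joins complexes III and IV into supercomplexes, had 216, 193 and 145 TPM in SF, against 522, 371 and 304 TPM in PF replicates 1 to 3 and 215 TPM in PF replicate 4. PF replicate 4 lay at the upper end of SF. The log2 fold change of −0.98 ± 0.28 had a DESeq2 adjusted p of 0.0049. The call ended without SF replicate 2 (adjusted p = 0.053). *COX7C*, a short membrane subunit, had 329, 664 and 417 TPM in SF, against 891, 1089 and 959.9 TPM in PF replicates 1 to 3 and 657 TPM in PF replicate 4. SF replicate 2 was the highest of SF and still below PF replicates 1 to 3 (−0.96 ± 0.36, adjusted p = 0.040). Its adjusted p was 0.054 without PF replicate 1, 0.14 without PF replicate 2, 0.11 without PF replicate 3, 0.10 without SF replicate 1 and 0.097 without SF replicate 3.

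**Figure D4:**
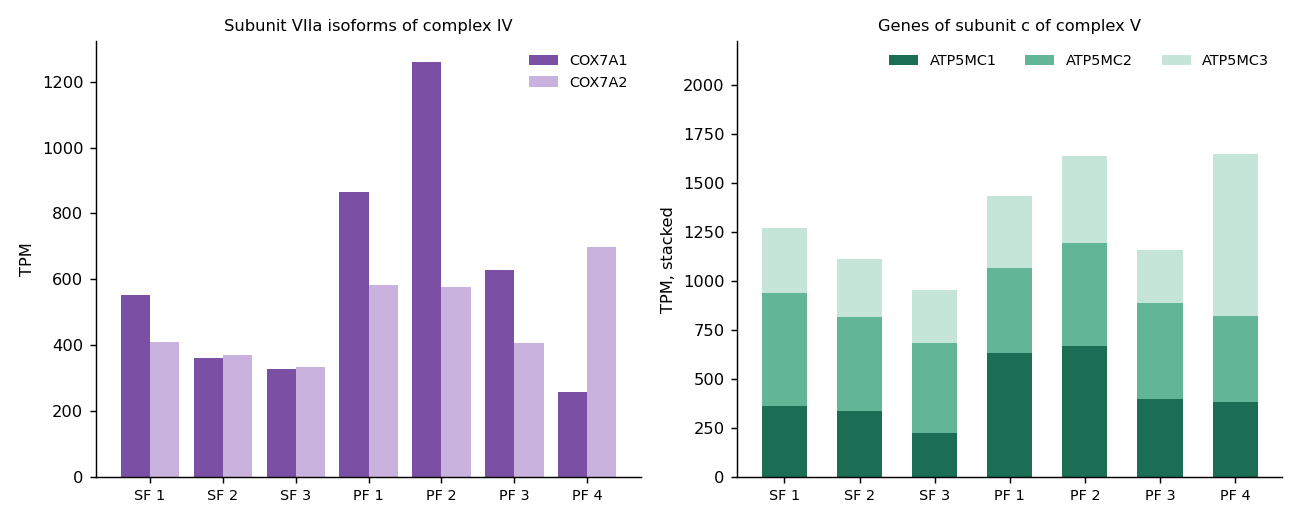
Left, TPM (y axis) of the subunit VIIa isoform genes COX7A1 and COX7A2 in each library; right, TPM of ATP5MC1, ATP5MC2 and ATP5MC3 stacked, which encode the same c subunit of complex V. COX7A1 exceeds COX7A2 in PF replicates 1 to 3 (1259.7 against 577 TPM in PF replicate 2) and is below it in PF replicate 4, and ATP5MC1 makes up 34.2% to 44.3% of the stack in PF replicates 1 to 3 and 23.7% to 30.2% in SF.

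The other tissue-restricted isoforms of complex IV were low. *COX7B2*, known for its expression in testis, had 5.75, 2.54 and 0 TPM in SF, against 17.1, 39.8 and 17.1 TPM in PF replicates 1 to 3 and 10.8 TPM in PF replicate 4. Every SF library lay below every PF library, but the spread was wide (log2 fold change −3.05 ± 1.28, DESeq2 adjusted p = 0.075). The gene was called without SF replicate 1 (adjusted p = 0.023), without SF replicate 3 (0.040) and by limma (0.047). *COX6B2*, another testis isoform, had 10.4, 10.3 and 1.18 TPM in SF, against 7.19, 23.2 and 21.3 TPM in PF replicates 1 to 3 and 1.3 TPM in PF replicate 4 (−1.25 ± 0.97). SF replicate 3 and PF replicate 4, the libraries lowest in oocyte markers, were also lowest in *COX6B2*. PF replicate 1, the library highest in oocyte markers, had less *COX6B2* than SF replicates 1 and 2. A link between the 2 levels was not tested.

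*COX6A2*, a muscle isoform, had 0 counts in all 7 libraries, which allows up to 3 counts in each, for counting error only. *COX4I2* had 6 counts in SF replicate 2 and 0 in the 6 other libraries. *COX8B* had 19, 1 and 2 counts in SF, against 2, 0 and 5 in PF replicates 1 to 3 and 0 in PF replicate 4, and neither gene received an adjusted p. Their common counterparts were abundant and were not called by DESeq2. *COX4I1* averaged 687 ± 169 TPM in SF and 833 ± 120.3 TPM in PF (log2 fold change −0.16 ± 0.27), *COX6A1* 1313 ± 349 TPM in SF and 1326 ± 114 TPM in PF (0.11 ± 0.30), *COX6B1* 408 ± 99.9 TPM in SF and 514 ± 138 TPM in PF (−0.19 ± 0.31), *COX7B* 109 ± 43.7 TPM in SF and 119.6 ± 32.5 TPM in PF (−0.02 ± 0.39) and *COX8A* 568 ± 111 TPM in SF and 497 ± 28.1 TPM in PF (0.30 ± 0.29). *COX6C* was the most abundant gene of the complex at both stages, at 1372 ± 307 TPM in SF and 1735 ± 113 TPM in PF (−0.23 ± 0.26). Every SF library was below PF replicates 1 to 3 in TPM, by 9.89 TPM at the nearest, and the groups overlapped in normalized counts.

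In complex V, 1 gene of the catalytic head was higher and 1 gene of the membrane ring was lower in SF. *ATP5F1B*, the catalytic beta subunit, had 811, 949 and 1039.8 TPM in SF, against 496, 557 and 621 TPM in PF replicates 1 to 3. PF replicate 4 had 1577 TPM, above every SF library. The log2 fold change was 0.84 ± 0.32 (DESeq2 adjusted p = 0.048), and 0.20 with PF replicate 4 kept (adjusted p = 0.88). Its adjusted p was 0.20 without PF replicate 1, 0.18 without PF replicate 2, 0.051 without SF replicate 1, 0.13 without SF replicate 2 and 0.12 without SF replicate 3. *ATP5F1A*, the alpha subunit that sits beside it in the head, had 425, 536 and 298 TPM in SF, against 205, 229 and 325 TPM in PF replicates 1 to 3 and 877 TPM in PF replicate 4. The groups overlapped through PF replicate 3 (0.77 ± 0.39, adjusted p = 0.15), and without that library the gene was called (adjusted p = 0.0025).

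*ATP5MC1* is one of 3 genes for the same mature c subunit, which forms the rotating ring in the membrane. It had 359, 335 and 225 TPM in SF, against 633, 668 and 395 TPM in PF replicates 1 to 3 and 382 TPM in PF replicate 4. SF lay below PF throughout (log2 fold change −0.74 ± 0.28, DESeq2 adjusted p = 0.048). The adjusted p was 0.15 without PF replicate 1, 0.19 without PF replicate 2, 0.18 without SF replicate 2 and 0.11 without SF replicate 3. *ATP5MC2* averaged 505 ± 63.9 TPM in SF and 484 ± 47.2 TPM in PF (0.16 ± 0.29), and *ATP5MC3* 299 ± 31.3 TPM in SF and 357 ± 86.7 TPM in PF (−0.12 ± 0.26).

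The summed level of the 3 genes overlapped between the stages, at 1109.97 ± 158.5 TPM in SF and 1406 ± 239.8 TPM in PF (SD, n = 3 each). Their shares of it did not overlap for *ATP5MC1* and *ATP5MC2*, and no test was run on them. *ATP5MC1* gave 28.3%, 30.2% and 23.7% of it in SF, against 44.3%, 40.9% and 34.2% in PF replicates 1 to 3 and 23.2% in PF replicate 4. *ATP5MC2* gave 45.5%, 43.2% and 48.0% in SF, against 30.2%, 32.1% and 42.7% in PF replicates 1 to 3 and 26.7% in PF replicate 4. The share of *ATP5MC3* was 26.1% to 28.3% in SF, against 23.1% to 27.0% in PF replicates 1 to 3, and 50.1% in PF replicate 4. PF replicate 4 thus resembled SF in the share of *ATP5MC1* and neither group in the shares of the other genes. *ATP5F1B* divided by *ATP5MC1* was 2.26, 2.83 and 4.62 in SF, against 0.784, 0.833 and 1.57 in PF replicates 1 to 3 and 4.13 in PF replicate 4.

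**Figure D5:**
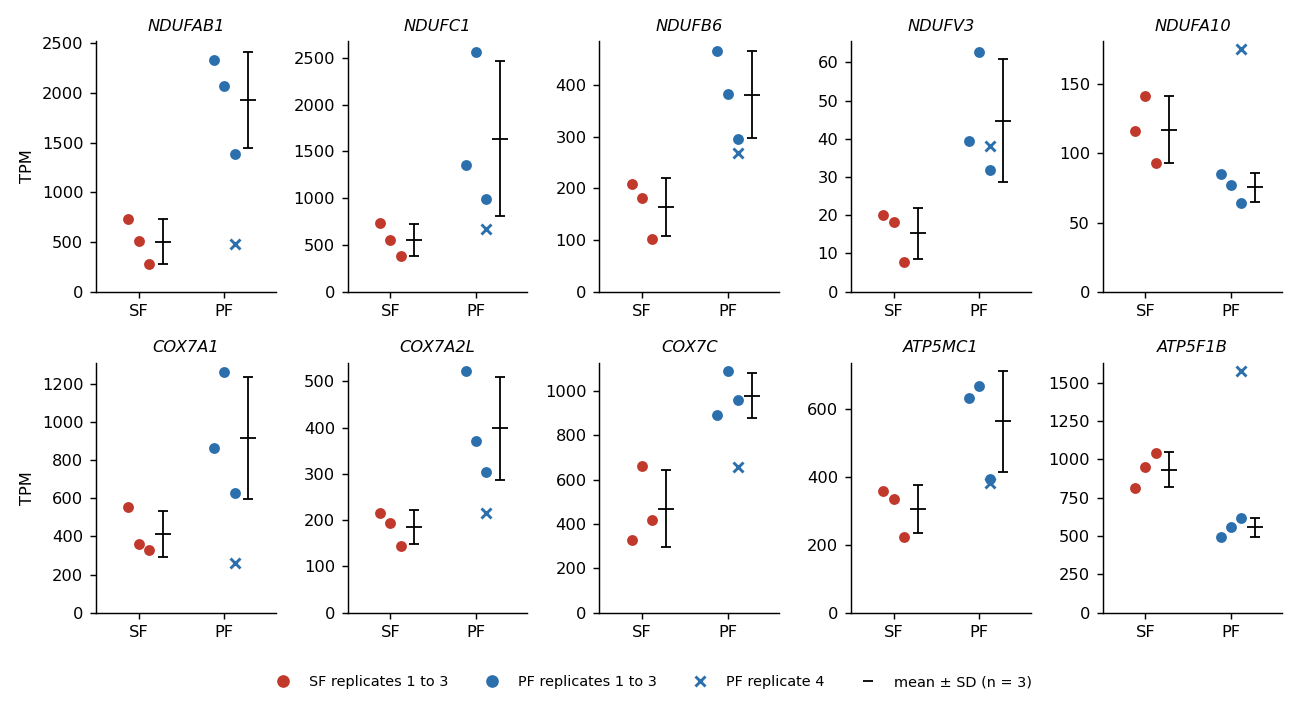
TPM (y axes, each from 0) of the 10 members called by DESeq2 in SF and PF libraries; circles are the libraries compared, crosses are PF replicate 4, and bars give the mean ± SD of 3 libraries. NDUFA10 and ATP5F1B are higher in SF than in PF replicates 1 to 3 and highest in PF replicate 4 (1577 TPM for ATP5F1B), and the other 8 genes are lower in SF.

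The remaining F1 genes, which complete the head and its stalk, were not called by DESeq2. *ATP5F1E*, the small epsilon subunit, had 747, 604 and 397 TPM in SF, against 999.7, 1082 and 882 TPM in PF replicates 1 to 3 and 568 TPM in PF replicate 4 (log2 fold change −0.65 ± 0.31, adjusted p = 0.13, and 0.017 without SF replicate 1). *ATP5IF1*, the inhibitor that stops the enzyme from running backwards, averaged 708 ± 216 TPM in SF and 926 ± 109 TPM in PF (−0.27 ± 0.31). Of the 5 F1 genes 3 were fitted above 0 and 2 below, with a median of 0.15. The 13 other genes of complex V ran between −0.74 and 0.33 with a median of −0.04, and 12 of them were not called. *ATP5PF* was the lowest of complex V, at 18.0 ± 10.6 TPM in SF and 14.7 ± 4.90 TPM in PF, with 1 of its 5 reference transcripts matched.

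Other genes of the pathway were counted in the same fit. Of 50 assembly factors, the proteins that build the complexes, 1 was higher and 9 were lower in SF (2.00% and 18.0%, beside 8.14% and 11.0% of all genes; median log2 fold change −0.48). The pair that assembles the F1 head of complex V moved in opposite directions. *ATPAF1*, which holds the beta subunit in yeast, had 81.4, 78.5 and 52.0 TPM in SF, against 33.9, 32.1 and 29.1 TPM in PF replicates 1 to 3 and 34.4 TPM in PF replicate 4 (1.19 ± 0.27, DESeq2 adjusted p = 3.8e-04). *ATPAF2*, which holds the alpha subunit in yeast, had 25.2, 25.0 and 14.3 TPM in SF, against 108, 113 and 55.0 TPM in PF replicates 1 to 3 and 31.3 TPM in PF replicate 4 (−1.97 ± 0.38, adjusted p = 1.4e-05). Both calls held with each of the 6 libraries left out and with PF replicate 4 kept, while edgeR gave an adjusted p of 0.052 for each and limma one of 0.061 for *ATPAF1*.

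Of 18 tested TCA cycle and pyruvate genes, 1 was higher and 0 were lower by DESeq2 (5.56% and 0%, beside 8.14% and 11.0% of all genes; 4 had an unadjusted p below 0.05; median 0.16). The gene that rose was *IDH2*, the NADP-dependent isocitrate dehydrogenase of mitochondria, with 383, 447 and 357 TPM in SF, against 209, 211 and 166 TPM in PF replicates 1 to 3 and 187 TPM in PF replicate 4 (1.13 ± 0.20, adjusted p = 1.1e-06; edgeR adjusted p = 0.053). Of 19 genes of mitochondrial DNA upkeep and biogenesis, 0 were higher and 3 were lower (15.8% lower, beside 11.0% of all genes; median −0.35; 7 had an unadjusted p below 0.05). Among all 15056 genes tested, 4781 had an unadjusted p below 0.05. A mixed list of 29 genes held electron carrier and nucleotide exchange genes, and also *SOD1*, *SOD2*, *AOX1*, *UCP2*, *HSPD1*, *TOMM20* and *VDAC1* to *VDAC3*. In it 2 were higher and 3 were lower (6.90% and 10.3%, beside 8.14% and 11.0%; median −0.09). *CYC1* was counted in this list and not with complex III. Of 78 mitochondrial ribosomal proteins, 1 was higher and 17 were lower (1.28% and 21.8%, beside 8.14% and 11.0% of all genes; median −0.52). Of 83 cytosolic ribosomal proteins 1 was higher and 1 was lower (1.20% each, beside the same shares of all genes; median 0.37). No test compared these lists with the subunit genes.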

How the data were processed

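RNA of 3 SF and 4 PF libraries was amplified with SMART-Seq v4, which does not mark strand, and grouped by the sample titles. According to the methods, reads were trimmed and quantified with Salmon against the ARS-UCD1.3 transcriptome; Trim Galore and Salmon are also in the submitters' processing notes. The authors deposited, per RefSeq transcript, an estimated count, a TPM and lengths. Near-identical copies, such as processed pseudogenes, can exchange reads.

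Transcripts were matched by accession to a RefSeq table of ARS-UCD2.0, used for names alone: 50205 of 76123 (66.0%) gave 23704 genes. The rest took 9.71% to 10.7% of each library's counts, so a level can be incomplete. Coordinates are left out because the builds differ. Counts and TPM were summed per gene, and estimated counts were rounded to whole numbers.

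SF replicates 1 to 3 were compared with PF replicates 1 to 3 by the Wald test of DESeq2 1.42.0 (R 4.3.3), with size factors by median of ratios, independent filtering and Benjamini-Hochberg adjustment over 15056 genes. PF replicate 4 was left out, following the study's methods. Sums and ratios of TPM are values without a test. The code was tested on simulated data. Alternatives were edgeR 4.0.16, limma 3.58.1 on log2(TPM + 1) for genes reaching 1 TPM in 3 libraries, TMM factors, total counts, a transcript length offset, a 10-count filter in 3 libraries, no filtering, PF replicate 4 kept, the replicate number as a block, a covariate for library numbers below or above 40, and each library left out. Figures used matplotlib 3.10.9 with Python 3.11.15 and pandas 2.3.3.

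Named members were those called (at most 10 in each direction), the most abundant of each complex, the isoform sets and the catalytic or regulatory genes. The rule also held a promoter search, which was not run, and 1 gene that is not reported here. *NDUFA8*, *NDUFS3*, *NDUFS4*, *UQCRQ*, *SDHD*, *ATP5F1E*, *ATP5PF*, *ATPAF1*, *ATPAF2*, *IDH2* and the ratios were chosen after their values were seen. The members and lists were chosen with earlier results of these data known. Amplified reads carried no molecular identifiers, so limits on counts of 0 cover counting error only.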

Additional observations from a re-analysis of the deposited data

Results flagged for a closer look

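In 41 results with 4 PF libraries tested for a library far from the others (Dixon's ratio of gap to range, at its 95% critical value), 3 passed, all in PF replicate 4. Chance flags about 1 in 20 separate groups, but these 41 results share the same libraries. PF replicate 4 had already been left out as standing apart, so the flags only describe that library. *NDUFA4L2* stood at 118 TPM in PF replicate 4, with 0.951 of the PF range between it and the next library. *UQCRFS1* stood at 499 TPM there, with a ratio of 0.860. *ATP5F1B* stood at 1577 TPM, with a ratio of 0.885. The same library held 5847 TPM of stromal fibroblast markers, against 423 to 616 TPM in the other PF libraries.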

How the results depend on the processing

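Over all members, the calls higher and lower were 2 and 8 by DESeq2, 0 and 0 by edgeR, 0 and 2 by limma, 3 and 4 with TMM factors, 0 and 5 with total counts, 1 and 6 without filtering, 0 and 2 with PF replicate 4 kept, and 4 and 8 with library number as a covariate. Over all genes they were 1226 and 1650 by DESeq2, 0 and 0 by edgeR, 233 and 559 by limma, and 1342 and 1455 with TMM factors. Total counts gave 638 and 1661, no filtering 1116 and 1512, PF replicate 4 kept 388 and 470, and the covariate 1421 and 1518. These fits tested 13150 to 18742 genes. Complex I had 0 higher by edgeR, by limma, with total counts and with PF replicate 4 kept, and its lower calls were 0 by edgeR, 1 by limma and 2 with PF replicate 4. Complex II gained 1 higher with TMM, with the length offset and with the covariate, and complex III 1 higher and 1 lower with the covariate. Complex IV had 0 lower by edgeR and with PF replicate 4, and 1 by limma and with TMM. The limma call was *COX7B2*, which DESeq2 did not call. Of the 10 genes called by DESeq2, only *NDUFAB1* was called by limma. The limma adjusted p was 0.056 for *NDUFC1*, 0.057 for *NDUFB6*, 0.059 for *COX7A2L* and 0.19 for *NDUFA10*. Complex V had 0 higher by edgeR, by limma, with total counts, without filtering and with PF replicate 4, and 0 lower under these 5, with TMM, with the length offset and with the filter of 10 counts. Of the 10 genes called, adjusted p passed 0.05 for *COX7A1* (0.060), *COX7C* (0.063) and *ATP5MC1* (0.083) with TMM, for *NDUFA10* (0.30), *COX7A1* (0.051), *ATP5F1B* (0.14) and *ATP5MC1* (0.083) with total counts, for *ATP5MC1* with the length offset (0.053) and the 10-count filter (0.059), and for *COX7C* (0.0503), *ATP5F1B* (0.059) and *ATP5MC1* (0.060) without filtering, beside *NDUFV3* as given above.

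Whether equal replicate numbers pair the libraries is not stated in the labels. Deviations from the group means correlated at 0.26, −0.04 and 0.40 for numbers 1, 2 and 3 over 13150 genes. For unequal numbers the correlations ran between −0.43 and 0.27, so these values do not settle whether the libraries were paired. With the replicate number as a block, 2 members were higher and 15 were lower, among them 9 lower in complex I and 1 in complex III, and all 10 calls were kept. Calls over all genes rose too, to 1948 higher and 2129 lower of 14586 tested. Without the block they were 1226 and 1650 of 15056. The 7 members gained included *COX7B2* (log2 −4.08, adjusted p = 0.018), *UQCRQ* (0.021), *NDUFA8* (0.017) and *NDUFS3* (0.010).

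With 1 library left out, the members called ranged 0 to 3 higher and 2 to 19 lower, beside 697 to 2018 higher and 927 to 1929 lower over all genes. In complex I they ranged 0 to 1 higher and 1 to 13 lower, in II 0 to 1 higher, in III 0 to 1 lower, in IV 1 to 3 lower, and in V 0 to 2 in each direction. Log2 ratios of the sums ranged −0.96 to −0.51 for complex I, −0.05 to 0.30 for II, −0.29 to 0.03 for III, −0.53 to −0.26 for IV and −0.27 to −0.04 for V. In normalized counts the log2 ratios were −0.52 for complex I, 0.24 for II, −0.05 for III, −0.26 for IV and 0.20 for V.

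Among the genes named, directions turned only for genes that were not called: *NDUFA4L2* (limma −0.43, block −2.86, covariate −2.72), *NDUFV1* (covariate 0.056), *SDHC* (covariate 0.015), *UQCRC1* (limma −2.5e-06, total counts −0.12, PF replicate 4 kept −0.41), *COX6A1* (limma −0.042, total counts −0.075, PF replicate 4 kept −0.030), *COX7B* (edgeR 0.049, TMM 0.057, covariate 0.15), *ATP5F1A* (PF replicate 4 kept −0.0064) and *ATP5MC2* (total counts −0.035). With 1 library left out, ranges crossed 0 for *NDUFA4L2* (−3.73 to 1.63), *NDUFV1* (−0.44 to 0.0087), *SDHC* (−0.26 to 0.065), *UQCRC1* (−0.0055 to 0.24), *COX6A1* (−0.12 to 0.24), *COX7B* (−0.29 to 0.27) and *ATP5PF* (−0.15 to 0.80). The median of all genes was 0.02 by DESeq2, −0.19 with total counts, 0.08 with TMM, 0.10 with the block and −0.10 with PF replicate 4 kept, and the share of all calls that were higher was 42.6%, 27.8% with total counts and 29.4% by limma. The causes were not tested.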
